A study of Mus musculus with 17 samples.

Results

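The genotype effect that is common to the whole series was examined by setting all 9 ACSS2 knockout (KO) libraries against all 8 wild-type (WT) libraries, within 3 strata defined by sex and injection. All 17 of the 17 libraries entered. The male PBS stratum held 3 KO mice (751, 752 and 753) and 3 WT mice (791, 792 and 793). The male Tau stratum held 3 KO mice (711, 712 and 713) and 3 WT mice (771, 772 and 773), and the female Tau stratum 3 KO mice (314, 324 and 325) and 2 WT mice (331 and 341). No stratum shared a library with another, so each one was a separate look at the same contrast. The mice were injected at 6 months of age, either with pathological tau purified from human Alzheimer's disease cortex (Tau) or with phosphate-buffered saline (PBS), and the study collected tissue about 6 months later. Bulk poly(A) RNA from slices of dorsal hippocampus was sequenced after perfusion with a fixative. The knockout is constitutive, so every cell type of the KO mice lacked the gene from development on. The KO and WT mice came from separate homozygous crosses of related animals, so genotype and parentage cannot be told apart. None of the libraries came from a female mouse given PBS, so sex was compared under Tau alone. The female mice were numbered 314 to 341 and the male mice 711 to 793. Sex therefore cannot be told apart from any other difference between these number series. The study's methods name male mice for bulk RNA sequencing, whereas the labels mark the libraries of this stratum as female.

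ACSS2, the product of Acss2, joins acetate to coenzyme A in the cytosol and the nucleus. The acetyl-CoA it makes can be used to acetylate histones or to build lipids. Cholesterol synthesis starts from acetyl-CoA: Hmgcs1 acts early in the making of mevalonate, Mvk to Fdps turn mevalonate into isoprenoids, Fdft1 and Sqle commit these to sterols, and Lss to Dhcr7 close and reshape the ring. Most of these enzymes and Acss2 itself are known targets of the SREBP transcription factors. In the adult brain astrocytes make much of the cholesterol.

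Total counts ran from 14183131 to 22463635 per library, so that 3 counts, the limit that a count of 0 allows, stood for 0.134 to 0.212 CPM, the count scaled to a common library total. That limit covers counting error only. The markers of the region were present: the 13 markers of dentate granule cells summed to 395 to 1110 CPM in KO and 598 to 839 CPM in WT libraries, and the 6 markers of CA1 pyramidal cells to 421 to 957 CPM and 361 to 873 CPM. Male KO Tau 713 stood apart in markers of choroid plexus, the epithelium that makes cerebrospinal fluid, with 5461 summed CPM where the other libraries held 227 to 1129 CPM. Results that touch it are given with and without it. Male KO PBS 752 held 811 CPM of striatal markers where the other 16 libraries held 179 to 307 CPM, and male KO Tau 711 held 7723 CPM of astrocyte markers where the other male libraries held 4288 to 5029 CPM.

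Acss2 was lower in every KO library of every stratum. Its gene (ENSMUSG00000027605.18) lies at chr2:155517948-155585724 on the plus strand of GRCm38. In the male PBS stratum Acss2 stood at 3.14, 4.17 and 3.84 CPM in KO 751, 752 and 753 against 49.2, 54.6 and 53.1 CPM in WT 791, 792 and 793. In the male Tau stratum it stood at 5.74, 3.07 and 4.33 CPM in KO 711, 712 and 713 against 51.7, 52.2 and 44.0 CPM in WT 771, 772 and 773. In the female Tau stratum it stood at 8.81, 6.15 and 4.98 CPM in KO 314, 324 and 325 against 54.3 and 46.4 CPM in WT 331 and 341. The genotypes did not overlap, and each of the 17 libraries matched its genotype label. KO libraries kept 7.11% of the WT mean in male PBS, 8.89% in male Tau and 13.2% in female Tau mice.

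The common estimate for Acss2, on the log2 scale of KO minus WT, was -3.40 (SE 0.15, 95% interval -3.72 to -3.07, adjusted p = 8.64e-10 by the quasi-likelihood test of edgeR with stratum as a block). Taken by stratum the log2 fold change was -3.76 in male PBS, -3.48 in male Tau and -2.86 in female Tau mice. A test of the difference among these 3 values gave an unadjusted p of 0.0387 in the edgeR fit across all genes and an adjusted p of 0.997. Acss2os, the antisense gene at the same locus, held 2 counts in all 9 KO libraries together and 30 in the 8 WT libraries, too few to be tested. The labels do not state that the library kit kept the strand, so reads of Acss2 and Acss2os cannot be told apart with certainty.

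Acss2 was the single gene that passed the common test. Of 15594 genes tested, 1 had an adjusted p under 0.05, which is 0.00641% of the genes. Without adjustment, 381 genes had p under 0.05 with a higher estimate in KO (2.44% of the genes) and 307 with a lower one (1.97%). The common test of DESeq2 called 2 genes, Acss2 and Golga4. Each stratum on its own called Acss2 and no other gene in the edgeR fit of all groups, with unadjusted p under 0.05 for 586 genes in male PBS, 585 in male Tau and 609 in female Tau mice. When each gene was given the largest of its 3 stratum p-values, Acss2 alone passed the adjusted threshold. Only Acss2, Cyp51 and Golga4 had a p under 0.05 in all 3 strata with 1 direction.

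No gene passed a test of whether its genotype effect differed among the strata (0 genes, 0.0%, by edgeR and 0 by DESeq2), although 460 genes had an unadjusted p under 0.05 in edgeR (2.95%). The strata nevertheless had little in common across the transcriptome. Across the 15594 genes, which are not independent replicates, the log2 fold changes of male PBS and male Tau mice had a Pearson r of 0.064, those of male PBS and female Tau mice 0.045, and those of male Tau and female Tau mice 0.13. The estimates of 2 strata had the same sign for 49.5% to 51.8% of the genes. All 3 estimates were higher in KO for 1988 genes (12.7%) and lower for 2046 genes (13.1%). With RLE factors, the scaling of DESeq2, the split was 2315 higher and 1704 lower.

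Each stratum was then used in turn to examine the genes that the other strata had picked out. A gene was picked if it had an unadjusted p under 0.05 and non-overlapping KO and WT libraries in both of the other strata, in 1 direction. Of 13 genes picked in the Tau strata, 8 (61.5%) kept their sign in male PBS mice, against 52.3% of all genes that had 1 sign in both Tau strata. Of 15 genes picked in male PBS and female Tau mice, 5 (33.3%) kept it in male Tau mice, against 51.3%. Of 17 genes picked in the male strata, 9 (52.9%) kept it in female Tau mice, against 49.9%. Acss2, Cyp51 and Golga4 had p under 0.05 in all 3 strata and so were picked each time. They are counted each time among the genes that kept their sign, which raises each share. No other picked gene had such a p with the same sign in the stratum left out.

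A plain count asked which genes had every KO library on 1 side of every WT library within each stratum, with CPM scaled to total counts. Within single strata, KO libraries lay wholly lower for 1445 genes in male PBS, 1347 in male Tau and 1610 in female Tau mice. They lay wholly higher for 372, 604 and 893 genes. With so many genes apart in each stratum, some stand apart in all 3 even without a common effect. How many was not worked out. In all 3 strata there were 18 such genes, 1 of them higher in KO (0.00641% of the genes tested) and 17 lower (0.109%). The gene on the higher side was Golga4. Beside Acss2 the lower genes with the smallest p were Cyp51, Gm13889, Idh1, Fam50a, Tmem165, Mrpl3, Spata7, Dstn, Tdrp, Wars2 and Cops4. The split leaned on the scaling: with TMM factors, the scaling of the edgeR fit, there were 12 genes (2 higher and 10 lower), with RLE factors 8 (4 and 4), and with offsets for transcript length and GC content 10 (7 and 3). Acss2, Cyp51 and Fam50a were in all 4 of these sets.

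**Figure D1:**
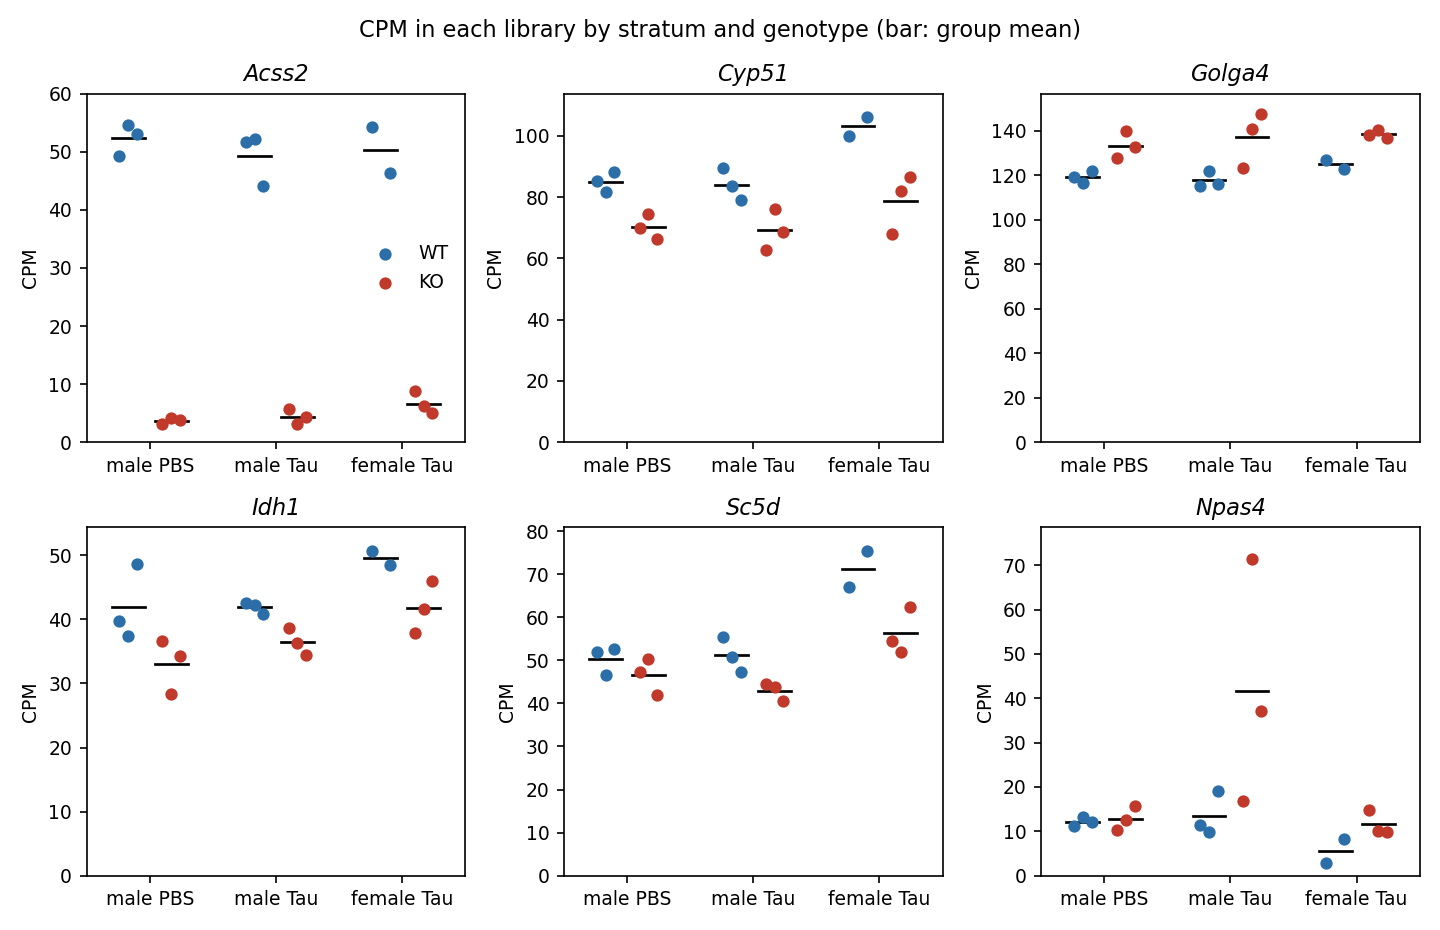
CPM (vertical axes, from 0) of 6 genes in each of the 17 libraries, with WT in blue and KO in red in each of the 3 strata (horizontal axes); points are libraries and bars are group means. Acss2, Cyp51 and Idh1 lay lower and Golga4 higher in every KO library than in every WT library of its stratum. The separation of Idh1 held with the total-count scaling shown here only. Sc5d overlapped in male PBS mice and Npas4 overlapped in both male strata.

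Cyp51, the lanosterol demethylase of cholesterol synthesis (ENSMUSG00000001467.5, chr5:4081145-4104746, minus strand), came next after Acss2 by the common p. In the male PBS stratum Cyp51 stood at 70.0, 74.5 and 66.5 CPM in KO mice against 85.3, 81.7 and 88.2 CPM in WT mice. In the male Tau stratum the KO libraries held 62.8, 76.2 and 68.6 CPM and the WT libraries 89.4, 83.7 and 79.1 CPM. In the female Tau stratum the values of Cyp51 were 68.0, 81.9 and 86.5 CPM in KO and 100.0 and 106 CPM in WT mice. The female WT libraries lay above every male WT library, and KO female 324 and 325 above every male KO library. The remaining female KO library, at 68.0 CPM, lay within the male KO range. KO female 324 and 325 reached the male WT range, so the separation held within strata rather than over all libraries. The common log2 fold change of Cyp51 was -0.27 (SE 0.05, 95% interval -0.38 to -0.15, unadjusted p = 1.25e-04), and its adjusted p was 0.675 in edgeR and 0.0536 in DESeq2. It was -0.22 in male PBS, -0.26 in male Tau and -0.34 in female Tau mice, and stayed between -0.30 and -0.23 under 30 alternative settings.

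Golga4, which encodes a golgin that tethers vesicles at the trans-Golgi (ENSMUSG00000038708.10, chr9:118506267-118582519, plus strand), lay on the other side. Its KO values were 128, 140 and 133 CPM in male PBS mice against 119, 117 and 122 CPM in WT mice. In male Tau mice Golga4 stood at 123, 141 and 148 CPM in KO and at 115, 122 and 116 CPM in WT libraries. In female Tau mice it stood at 138, 140.5 and 137 CPM against 127 and 123 CPM. The margin was narrow, with KO 711 at 123 CPM just above WT 772 at 122 CPM. The common log2 fold change of Golga4 was 0.22 (SE 0.05, 95% interval 0.12 to 0.32, adjusted p = 0.675 in edgeR and 6.03e-04 in DESeq2), so that the edgeR and DESeq2 tests fell on different sides of the threshold. With 1 library left out at a time the DESeq2 value of Golga4 ran from 8.53e-06 to 0.00919, other than without female KO 325, where the filter of DESeq2 on mean counts gave it no adjusted p. The transcript of Golga4 is long, at 7583 bases. With the length and GC offsets its estimate was 0.19 (unadjusted p = 0.00229 by edgeR) and its libraries no longer stood apart in every stratum.

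The other lower genes had small estimates. Among them Idh1, Gm13889, Mrpl3, Spata7 and Tdrp stood apart in all strata with total-count scaling only, and not with TMM factors, RLE factors or the offsets. Idh1, the cytosolic isocitrate dehydrogenase that supplies NADPH, had a mean of 33.1 ± 4.24 CPM in KO and 41.9 ± 5.97 CPM in WT mice (SD, n = 3 each) of the male PBS stratum. It had 36.5 ± 2.11 and 41.9 ± 0.903 CPM in the male Tau stratum (SD, n = 3 each), and 41.8 ± 4.06 (SD, n = 3) and 49.6 ± 1.55 CPM (SD, n = 2) in the female Tau stratum. The common log2 fold change of Idh1 was -0.22 (SE 0.06). Fam50a, a nuclear protein tied to splicing, had -0.16 (SE 0.05), with KO libraries at 21.9 to 27.9 CPM and WT libraries at 29.0 to 31.1 CPM over all 17 libraries. Dstn, an actin-depolymerising factor, had -0.13 (SE 0.05), the Golgi ion transporter gene Tmem165 -0.19 (SE 0.06), the mitochondrial ribosomal gene Mrpl3 -0.13 (SE 0.04), the mitochondrial tryptophan tRNA ligase gene Wars2 -0.17 (SE 0.06) and the COP9 signalosome subunit gene Cops4 -0.13 (SE 0.05). For Gm13889, Spata7 and Tdrp the log2 fold changes were -0.26 (SE 0.07), -0.26 (SE 0.09) and -0.19 (SE 0.07). None of these passed the adjusted threshold, the smallest adjusted p among them being 0.980 in edgeR.

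The estimates for sterol and fatty acid genes had a negative median in each stratum, lowest in female Tau mice. Of 29 sterol and fatty acid genes, all of which were tested, 20 had a lower common estimate in KO, and 8 of these had an unadjusted p under 0.05 where 1.97% of all genes did. None had a higher estimate at that p. None passed the adjusted threshold, the smallest adjusted p being the 0.675 of Cyp51. Estimates were lower in all 3 strata for 14 of the genes, where 13.1% of all genes were. They were higher in all 3 for Acaca, Fasn and Srebf2, where 12.7% of all genes were. The median log2 fold change of the list was -0.13, against 0.00 over all genes tested, and it was -0.07 in male PBS, -0.05 in male Tau and -0.23 in female Tau mice. Members with a higher estimate in KO numbered 8, 13 and 4 in these strata. The summed CPM of the list had means of 3903 in KO and 3904 in WT mice in male PBS. These means were 3940 and 3968 in male Tau, and 4415 and 4926 in female Tau mice.

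Sterol enzymes and fatty acid enzymes are given apart here, and the difference between them was not tested. Of the 17 sterol enzymes, 16 had a lower common estimate, 7 had an unadjusted p under 0.05 where 1.97% of all genes did on the lower side, and the median was -0.17 (by stratum -0.09, -0.21 and -0.29). The 7 became 2 without female WT 341, 3 without female KO 314, 4 without male KO Tau 711, male KO PBS 751 or 753 or male WT PBS 793, and 1 without the whole female stratum. It was 4 in DESeq2 and 3 without the stratum term. The exception was Pmvk, phosphomevalonate kinase, at 0.01. For Sqle, the epoxidase that adds oxygen to squalene, the common log2 fold change was -0.27 (SE 0.10), and for Mvd and Idi1, which make the isoprene units, -0.24 (SE 0.11) and -0.21 (SE 0.10). Late enzymes of the pathway gave -0.23 (SE 0.10) for Msmo1, -0.19 (SE 0.06) for Sc5d and -0.19 (SE 0.08) for Dhcr7. The 7 fatty acid enzymes had a median of 0.06, with 0.12 (SE 0.07) for Acaca, 0.15 (SE 0.10) for Fasn and -0.13 (SE 0.05) for Elovl6, the elongase.

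Values by library showed where these estimates came from. Sqle stood at 67.1, 78.0 and 76.9 CPM in KO and 85.4, 81.2 and 99.9 CPM in WT mice of the male PBS stratum, and the genotypes did not overlap there. In the male Tau stratum its KO values were 45.9 (711), 88.4 (712) and 71.8 CPM (713) and its WT values 85.1, 80.2 and 86.3 CPM, so that KO 712 lay above all 3 WT libraries and KO 711 held the lowest value of the 17 libraries. In the female Tau stratum Sqle stood at 56.8, 55.2 and 58.9 CPM in KO and 61.4 and 88.2 CPM in WT mice. These did not overlap, but the 2 female WT mice differed from each other by more than the means of the female genotypes did. Sc5d, which desaturates the sterol ring, was separated in both Tau strata. It stood at 44.5, 43.7 and 40.7 CPM in KO and 55.3, 50.8 and 47.3 CPM in WT mice in male Tau, and at 54.4, 52.0 and 62.4 CPM in KO and 67.0 and 75.4 CPM in WT mice in female Tau. In male PBS mice the Sc5d values overlapped, at 47.2, 50.4 and 42.0 CPM in KO and 52.0, 46.6 and 52.7 CPM in WT mice.

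Single libraries weighed on the size of the list. Of the sterol and fatty acid genes, 2 had an unadjusted p under 0.05 on the lower side without female WT 341, and 4 did without female KO 314 or without male KO Tau 711. The count was 5 without male KO PBS 751 or 753, male WT PBS 793, or male WT Tau 771 or 772. In these fits 1.43% (without 771) to 3.81% (without 751) of all genes had such a p on the lower side. The share was 1.90% without female KO 314 and 2.66% without male KO Tau 711. Leaving out the whole female stratum left 1 gene, where 2.11% of all genes had such a p. Leaving out male Tau left 5, where 1.61% did. The median of the list stayed negative in each of these fits, from -0.17 to -0.08 over all fits except that with the dentate granule markers as a covariate, where it was -0.19 with 13 genes. With 1 surrogate variable it was -0.08 with 4 genes, and with the choroid plexus markers as a covariate -0.11 with 4 genes. DESeq2 and RLE factors each gave 5 genes, and the fit without the stratum term 4. Markers of astrocytes summed to 4288 to 8793 CPM in KO and 4666 to 8752 CPM in WT libraries, and those of oligodendrocytes to 3921 to 8187 and 3356 to 12799 CPM, and over all libraries the genotypes overlapped in both. Within strata the oligodendrocyte markers had medians of 0.40 in male PBS, -0.22 in male Tau and -0.45 in female Tau mice, with 13, 2 and 0 of 13 markers higher in KO. Their sums in female Tau mice still overlapped, at 5276, 7645 and 6423 CPM in KO and 12799 and 6613 CPM in WT libraries. Of 8 markers of oligodendrocyte precursors 0 were higher in female KO mice, and their sums stood apart there, at 290.5, 346 and 301 CPM in KO and 381 and 376 CPM in WT libraries. The 11 astrocyte markers had medians of 0.01, 0.24 and -0.03. The part that glial RNA had in the sterol values was not tested.

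**Figure D2:**
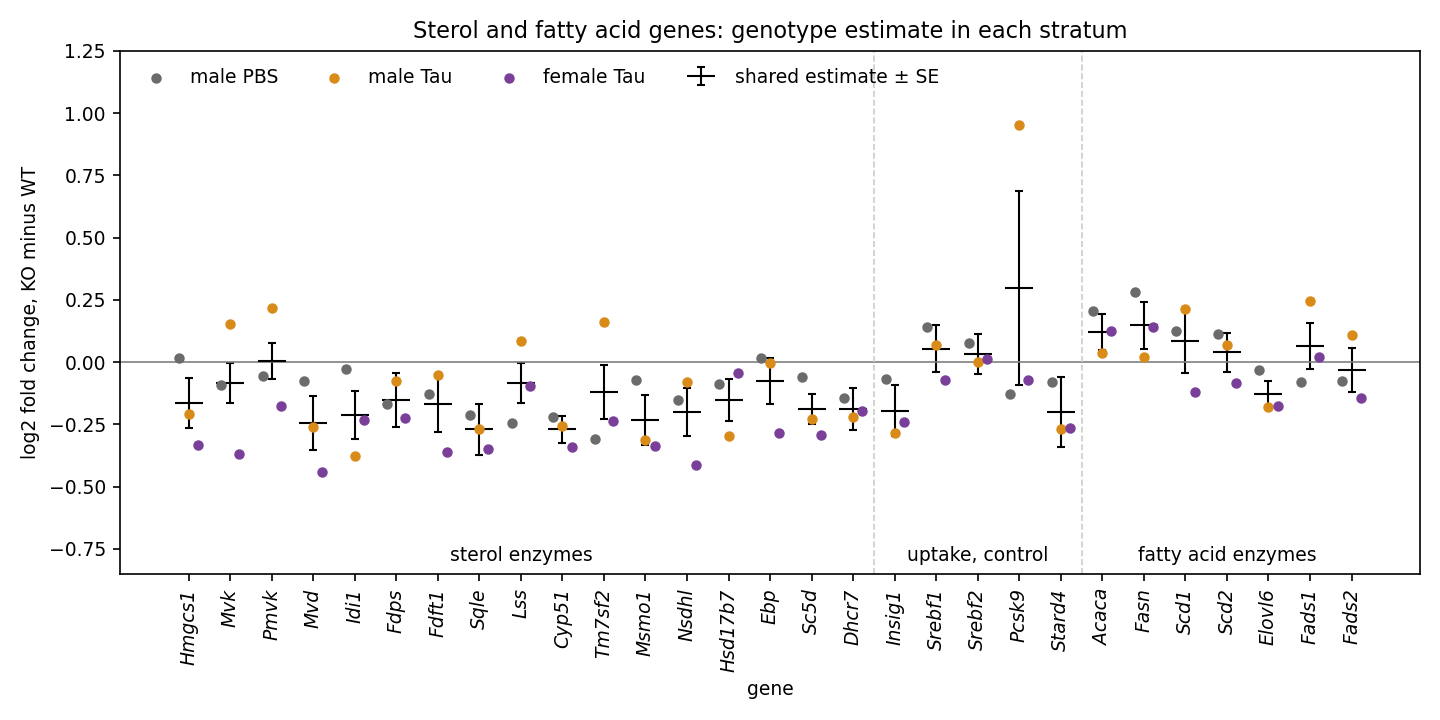
Log2 fold change of KO minus WT (vertical axis) for the 29 sterol and fatty acid genes in the order of the pathway (horizontal axis), with 1 coloured point per stratum and the common estimate ± SE in black. Among the 17 sterol enzymes 16 common estimates lay under 0, whereas the 7 fatty acid enzymes lay on both sides.

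The promoters of 3 of the genes are shown so that Acss2 can be read beside Cyp51 and Sc5d, the sterol enzymes with the smallest common p. The sequences are from RefSeq (GRCm38.p6) and run 5′ to 3′ on the strand of the gene, from 250 bases before to 50 bases after a listed start. Capitals mark CCAAT, the box bound by the factor NF-Y, or its reverse complement. The windows are chr2:155517793-155518092 (plus strand), chr5:4104648-4104947 (minus strand) and chr9:42264251-42264550 (minus strand).
Acss2: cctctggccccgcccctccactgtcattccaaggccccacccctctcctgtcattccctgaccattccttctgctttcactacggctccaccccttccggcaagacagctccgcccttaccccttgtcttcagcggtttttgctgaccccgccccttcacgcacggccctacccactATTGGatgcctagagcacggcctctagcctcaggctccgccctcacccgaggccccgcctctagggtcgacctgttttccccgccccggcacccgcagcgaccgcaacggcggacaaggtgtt
Cyp51: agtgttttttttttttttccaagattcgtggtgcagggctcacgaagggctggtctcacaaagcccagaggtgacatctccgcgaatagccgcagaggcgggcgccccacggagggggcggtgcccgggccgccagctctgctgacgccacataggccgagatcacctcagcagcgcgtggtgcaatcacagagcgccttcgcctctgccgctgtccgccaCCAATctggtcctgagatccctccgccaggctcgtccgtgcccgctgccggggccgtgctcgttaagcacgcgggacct
Sc5d: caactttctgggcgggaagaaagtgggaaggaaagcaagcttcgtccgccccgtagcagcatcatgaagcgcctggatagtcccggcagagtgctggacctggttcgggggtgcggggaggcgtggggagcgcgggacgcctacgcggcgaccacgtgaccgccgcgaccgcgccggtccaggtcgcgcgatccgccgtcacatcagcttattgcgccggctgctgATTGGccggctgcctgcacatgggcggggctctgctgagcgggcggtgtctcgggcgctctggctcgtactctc

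Each of the 3 windows held 1 CCAAT. Both strands of 32851 mouse promoters of the same length were searched, and 37.4% of them held CCAAT. Of the 29 sterol and fatty acid genes 21 had a promoter in the RefSeq set, and 18 of these (85.7%) held a CCAAT in at least 1 of their promoters, against 41.1% of the 27025 genes of the set. Counted by promoter it was 19 of 26 (73.1%). TCACNCCAC, a form of the sterol regulatory element that neither holds nor is held in CCAAT, was in 1.24% of all promoters and in 1 gene of the list, Hmgcs1. A match is a description of letters and not of a bound site.

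The list of acetyl-CoA and acetate supply also holds users of acetyl-CoA. Of its 18 genes tested, 13 had a lower common estimate, and none of these had an unadjusted p under 0.05. The list includes the citrate-cleaving enzyme Acly at 0.03 (SE 0.07) and the mitochondrial acetate enzyme Acss1 at 0.14 (SE 0.12). On the higher side 1 gene had such a p, where 2.44% of all genes did: Nat8l, which uses acetyl-CoA to make N-acetylaspartate, at 0.26 (SE 0.11). Estimates were higher in all 3 strata for 1 of the genes and lower for 4, where 12.7% and 13.1% of all genes were, and the median was -0.04. Of 32 writers, erasers and readers of histone acetylation, 2 had such a p on the higher side, against the same 2.44%, and none on the lower, where 1.97% of all genes did, and the median was 0.00.

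The study reported Npas4, Rfx3 and Rfx5 from bulk RNA of KO Tau against WT PBS mice. It reported Sema3c, Grik1, Dab1, Reln, Lingo1 and Ncam2 from single-nucleus clusters. The common test sets KO against WT within strata of bulk tissue, so it is a different comparison from those. Of the genes the study names, none beside Acss2 passed the common test. Npas4, a transcription factor induced by neuronal activity, had the largest estimate at 0.95 (SE 0.30, unadjusted p = 0.00585 and adjusted p = 0.980 in edgeR). In male Tau mice it stood at 16.8, 71.4 and 37.0 CPM in KO 711, 712 and 713 and 11.4, 9.75 and 19.04 CPM in WT mice. KO 712 and 713 also held 874 and 788 CPM of neocortex markers, against 496 to 585 CPM in those WT mice. The part that this had in the Npas4 values was not tested. In female Tau mice the KO values of Npas4 were 14.9, 10.1 and 9.83 CPM and the WT values 2.84 and 8.32 CPM. In male PBS mice they were 10.4, 12.5 and 15.7 CPM against 11.3, 13.3 and 12.1 CPM. The KO libraries were thus separate in females only, and the stratum estimates ran from 0.13 in male PBS to 1.65 in male Tau mice. Without the male Tau stratum the estimate was 0.52.

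For the other genes of the study the estimates were small. The guidance gene Sema3c had -0.18 (SE 0.08) and the kainate receptor gene Grik1 -0.25 (SE 0.14), both lower in all 3 strata. Rfx3 had -0.17 (SE 0.23), ran from -0.42 without male KO PBS 751 to -0.07 without 752, and also held 1 sign, whereas Rfx5 at -0.13 (SE 0.08) and Rfx7 at -0.02 (SE 0.08) did not. Mapt, the gene of mouse tau, had 0.07 (SE 0.06). Reln, which encodes a secreted signal that Cajal-Retzius cells and other cells make, had -0.11 (SE 0.16). Its adaptor gene Dab1 had 0.00 (SE 0.09), and Rbpj, Lingo1 and Ncam2 lay between -0.06 and 0.09. The signs of Dab1, Rbpj and Rfx7 turned under several alternative settings, and those of Reln, Rfx3 and Lingo1 under 1 each.

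Among the lists of more than 1 tested gene, choroid plexus was the one whose members all had estimates on 1 side in every stratum. All 17 markers had a higher estimate in KO in all 3 strata, where 12.7% of all genes did. Markers of 1 tissue are not independent of each other, so the 17 are not separate observations. Of the 17 markers, 11 had an unadjusted p under 0.05 where 2.44% of all genes did, and none passed the adjusted threshold. The median was 1.39 (0.89 in male PBS, 1.70 in male Tau and 1.19 in female Tau mice). Ttr, which carries thyroid hormone and retinol in cerebrospinal fluid, stood at 106, 16.99 and 135 CPM in KO and 22.6, 44.2 and 29.2 CPM in WT mice of the male PBS stratum. In male Tau mice Ttr stood at 229, 42.0 and 3775 CPM in KO and 85.2, 492 and 24.4 CPM in WT mice, and in female Tau mice at 307, 40.4 and 53.8 CPM against 7.12 and 40.1 CPM. KO and WT libraries overlapped in both male strata. Without male KO Tau 713 the median was 0.53, 1 marker had a lower common estimate in KO, and none of the 17 markers had an unadjusted p under 0.05 by edgeR. The summed markers ran from 298 to 5461 CPM in KO and from 227 to 1129 CPM in WT libraries. In female Tau mice they were 803, 327 and 298 CPM in KO 314, 324 and 325 and 317 and 313 CPM in WT mice. Without female KO 314 the list median was 1.21. In that fit 7 markers had an unadjusted p under 0.05 by edgeR on the higher side, where 313 of 15556 genes did. In bulk tissue more cells of a type and more RNA per cell cannot be told apart, and the part that dissection had in this difference was not tested.

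In each of the other lists some members had estimates of mixed sign. Of 13 dentate granule markers 6 had a lower estimate in all 3 strata and 1 a higher one, where 13.1% and 12.7% of all genes did. Their median was -0.18, and none had an unadjusted p under 0.05. Of 29 immediate early genes 6 were higher and 4 lower in all strata, where 12.7% and 13.1% of all genes were. Their median turned from -0.11 in male PBS and -0.14 in male Tau mice to 0.21 in females. Oxidative phosphorylation genes had medians of 0.05, 0.12 and -0.16 in the 3 strata. The median of the disease-associated microglia list was 0.03, that of the interferon list -0.04 and that of the heat shock list 0.08. The 3 genes known to vary among C57BL/6 substrains had common estimates from -0.05 to 0.70, and 0 of them had an unadjusted p under 0.05 by edgeR. Of these, Nnt had 0.12 (SE 0.06) with 1 sign in all strata.

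**Figure D3:**
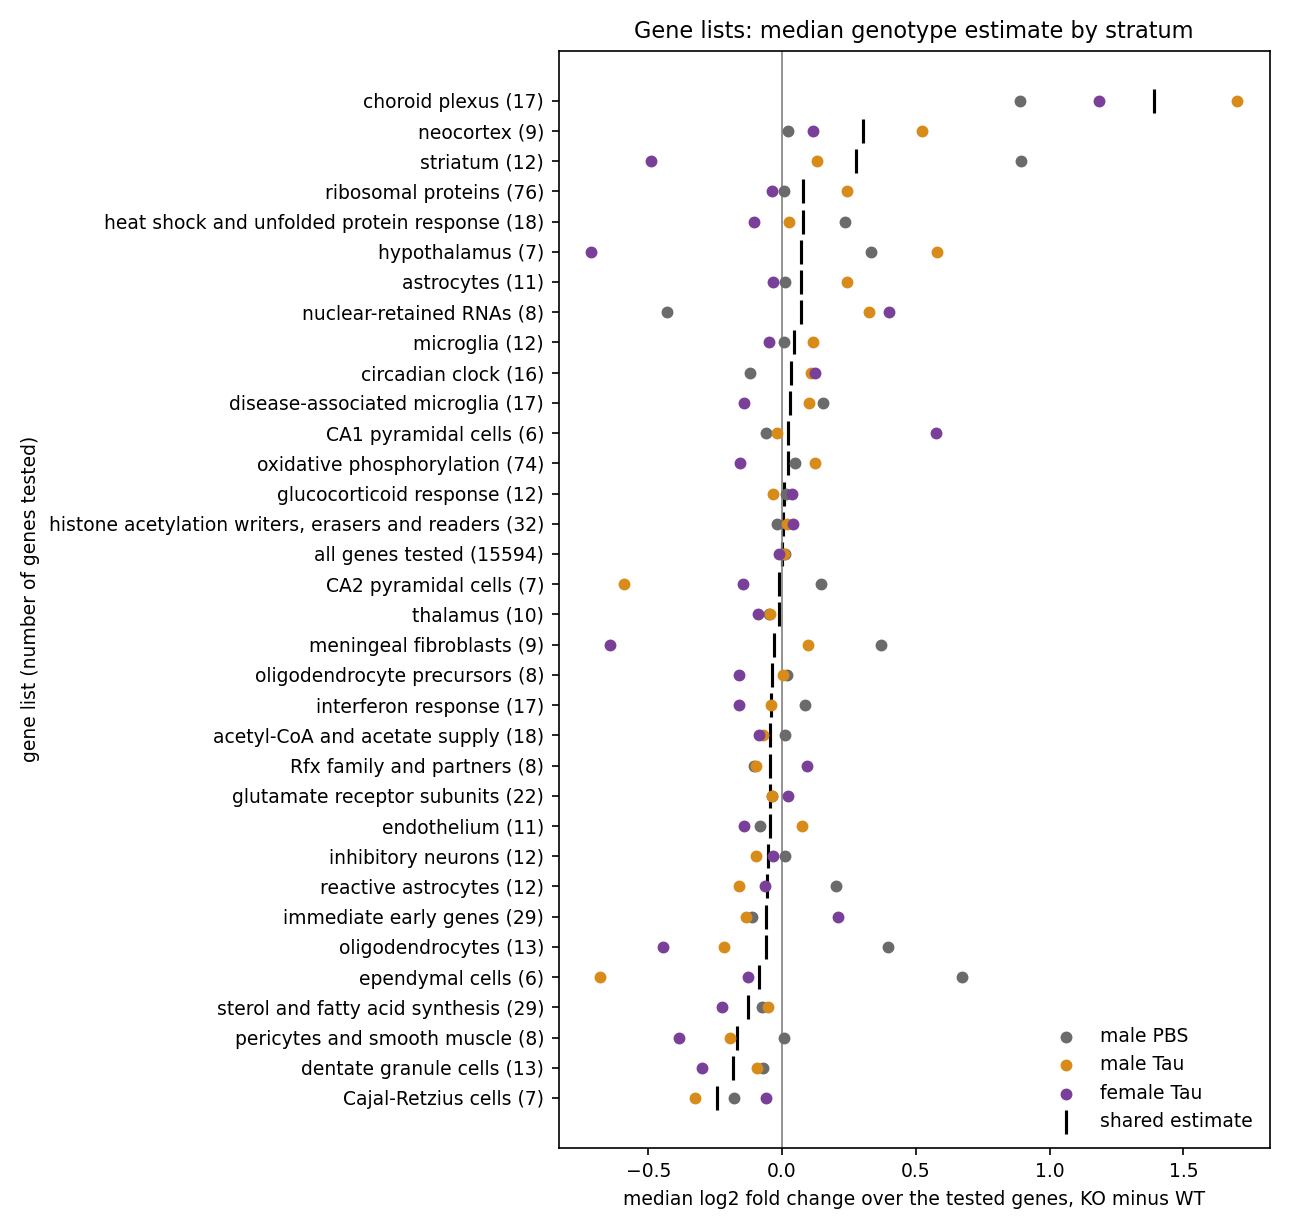
Median log2 fold change of KO minus WT (horizontal axis) over the tested genes of each list (vertical axis, with the number of genes), with 1 coloured point per stratum and the median of the common estimates as a black bar. The choroid plexus list lay above 0 in all 3 strata at 0.89 to 1.70, whereas most other lists had strata on both sides of 0 and all genes together lay near it.

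Genes beside Acss2 on chromosome 2 were looked at since DNA from around a targeted allele is inherited along with it. Of the 20 tested genes on each side, from chr2:154335380 to 156309952 on GRCm38, none was called by edgeR and 2 of 40 (5.0%) had an unadjusted p under 0.05, where 4.41% of all genes did. These were the centrosomal gene Cep250 at 0.15 (SE 0.06) and Spag4 at -0.31 (SE 0.13). The libraries of none of the 40 stood apart in all strata. The median size of the log2 fold change was 0.05, against 0.07 over all genes. With 10 genes on each side 0 of 20 had such a p, and with 50 on each side 4 of 100 did.

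**Figure D4:**
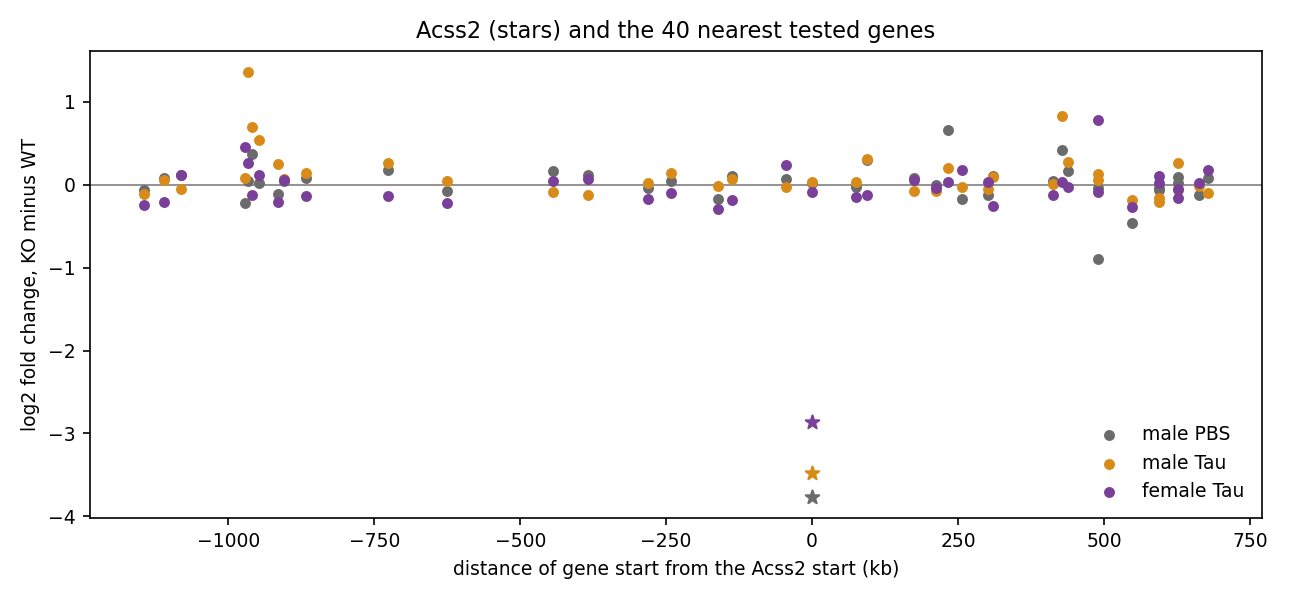
Log2 fold change of KO minus WT (vertical axis) against the distance of each gene's start from that of Acss2 in kb (horizontal axis) for the 40 nearest tested genes, with 1 coloured point per stratum; stars are Acss2. Acss2 lay at -3.76 to -2.86, and the common estimates of its neighbours between -0.31 and 0.53.

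The genotype estimates moved with transcript length, and in opposite directions in the strata. Across 15482 genes Spearman's rho between length and log2 fold change was 0.07 in male PBS, -0.18 in male Tau and 0.32 in female Tau mice, and 0.10 for the common estimate. In the longest of 5 equal groups of genes the median was 0.05, -0.03 and 0.12 in the 3 strata, and in the shortest 0.01, 0.07 and -0.10. The 378 higher genes with an unadjusted p under 0.05 and a known length had a median length of 4872 bases, the 305 lower genes 3338 bases and all genes 3367 bases. Cyp51, with 3931 bases, had an estimate of -0.23 with the length and GC offsets (unadjusted p = 4.06e-04 by edgeR). With these offsets the sterol and fatty acid list had a median of -0.11. On the lower side 5 of its genes had an unadjusted p under 0.05, where 1.59% of all genes did.

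**Figure D5:**
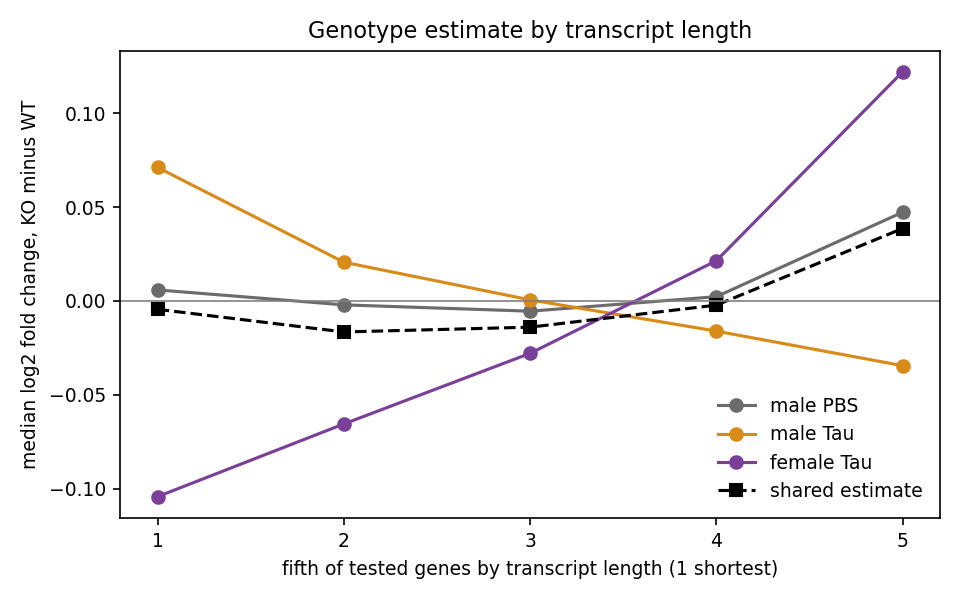
Median log2 fold change of KO minus WT (vertical axis) in 5 equal groups of tested genes from the shortest to the longest transcripts (horizontal axis), with coloured lines for the strata and a dashed line for the common estimate. The female Tau line rose from -0.10 to 0.12 and the male Tau line fell from 0.07 to -0.03.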

How the data were processed

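Per the labels and the study's methods, the authors aligned reads with STAR 2.5.2 to GRCm38, and HTSeq 0.9.1 assigned them to gene exons in reverse-stranded mode. The deposited values were raw read counts for 24498 gene symbols. Positions and lengths came from the GENCODE annotation of GRCm38, in which 98.4% of symbols were found; gene IDs are therefore matched by symbol, and paralogs can share reads.

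Genes were filtered with filterByExpr (minimum count 10, minimum total count 15) and tested by the quasi-likelihood method of edgeR 4.0.16 (R 4.3.3), with TMM factors (0.940 to 1.08), stratum as a block for the common effect and 6 groups for stratum effects, and Benjamini-Hochberg adjustment over 15594 genes at 0.05. P-values that miss the threshold do not show that genotypes act alike. Printed CPM are scaled to total counts. Alternatives were DESeq2 1.42.0, RLE factors, voom in limma 3.58.1, no low-count filter, no stratum term, equal weights, 1 surrogate variable (sva 3.50.0), covariates of dentate granule or choroid plexus markers, each stratum alone or left out, and each library left out. Length and GC offsets (splines with 5 degrees of freedom), DESeq2 without each library and the count of separated genes without each library were added after seeing the data. No pair among 136 had identical counts. Scripts were tested on simulated data.

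The named genes were Acss2, genes the study names, genes past a threshold, up to 12 genes per direction with libraries apart in all strata, and members of the lists and the Acss2 neighbourhood. The strata, members and lists were chosen with earlier results of these data known. Some genes of the sterol list are not reported here, and its counts and medians leave them out.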

Additional observations from a re-analysis of the deposited data

How the results depend on the processing

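Acss2 was called in all 30 alternatives of the common test, at -3.62 to -3.20, and the count stayed at 1 gene in all but DESeq2, with 2. Without each library the edgeR count was 1 every time, and the DESeq2 count ran from 2 to 19. The 19, without female KO Tau 325, were all higher in KO; there a filter on mean counts gave Acss2 itself no adjusted p, and without that filter DESeq2 still called 12. The DESeq2 count was 4 to 6 without female WT Tau 341, male KO PBS 751, 752 or 753, or male KO Tau 711 or 712. DESeq2 called 4 genes in male Tau mice, and a fit of the female Tau libraries alone called 0. Separated genes numbered 8 with RLE factors, 10 with the offsets and 20 to 45 without each library, where fewer libraries make separation easier; the count passed 27 without female Tau 325, 331 or 341, male KO PBS 751, or male KO Tau 711 or 712. Genes with 1 sign numbered 3432 to 4766 over the alternatives. RLE factors moved the median of all genes from 0.00 to 0.01. Signs turned for 6 genes whose estimates were smaller than their SE. With the dentate granule covariate Rfx3 was 0.051, Rbpj -0.035 and Lingo1 -0.085. Without male PBS mice Rfx7 was 0.016, Rbpj -0.0077 and Reln 0.078, and without male Tau mice Rfx7 was 0.047. Dab1 was -0.0024 with all genes of at least 1 count, -0.078 with voom, -0.0036 without the stratum term, -0.058 without female mice, -0.052 with a surrogate variable and -0.029 with the choroid covariate. Without single libraries Rfx7 ran from -0.072 to 0.019, Rbpj from -0.035 to 0.058 and Dab1 from -0.055 to 0.040. A fit without female WT 331 or 341 assumes that the lone WT library varies like the other groups. No paired analysis was possible because no mouse number is shared between groups. The causes were not tested.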

Other observations

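Some genes separated KO from WT libraries in both male strata and not in females, and were named after their values were seen. Fosl2, a subunit of the AP-1 factor, stood at 57.3, 52.1 and 69.8 CPM in KO and 72.5, 106 and 87.9 CPM in WT mice of the male PBS stratum. In the male Tau stratum it stood at 37.1, 50.9 and 43.4 CPM against 72.5, 72.0 and 71.2 CPM. In female Tau mice the values of Fosl2 were 50.8, 51.7 and 58.7 CPM in KO and 52.7 and 46.7 CPM in WT libraries, which overlapped. Its log2 fold changes were -0.52, -0.69 and 0.16, and those of the clock gene Per1 were -0.55, -0.51 and 0.16. The edgeR test of a difference among strata, run on all genes tested, called neither gene. Both were picked with this turn known, so no further test of it was made. Of the 17 genes picked in the male strata 8 had the other sign in females. Avp, the vasopressin gene, was near the detection limit, at 0.207 to 2.96 CPM over all libraries, with 1.75, 1.70 and -0.71.

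Next to Cyp51 and Golga4 by the common p stood Spry4, an inhibitor of receptor tyrosine kinase signalling, and Fam46c, both also named after their values were seen. Spry4 had a common log2 fold change of -0.42 (SE 0.09) and Fam46c 0.80 (SE 0.17), with an adjusted p of 0.675 each in edgeR and 0.0652 each in DESeq2. Fam46c was at 0.990 to 3.86 CPM in KO and 0.712 to 1.74 CPM in WT libraries.

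Single libraries also stood out in single genes of other tissues. Gabra6, a receptor subunit of cerebellar granule cells, stood at 36.8 CPM in male WT PBS 791 and at 0.668 CPM or less in the other 16 libraries. Cyp2g1, an enzyme of the olfactory mucosa, stood at 2.55 CPM in male KO Tau 712, 1.55 CPM in 713 and 1.01 CPM in male KO PBS 751, and at 0.373 CPM or less in the others.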
